A study of Mus musculus with 16 samples.

Results

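Genes of the hypoxia response and of glycolysis were followed in tumours of H295R, a human adrenocortical carcinoma cell line that makes steroid hormones, grown in SCID mice treated with mitotane, 9-cis retinoic acid (9-cisRA) or both. The set was given as a list of 36 RefSeq transcripts, and a gene was a member when the identifier on the array equalled its listed transcript. Of the 36, 33 were found among 29094 identifiers on the array and 30 were among the 20243 transcripts bright enough to be tested. The listed transcripts of HIF1A, PKM2 and P4HA1 were not found and are not analysed here. CA9, EGLN3 and STC2 were on the array but too dim for the test. The rule uses the identifiers alone and no measured value.

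Hypoxia-inducible factors (HIFs) are transcription factors whose alpha subunits are hydroxylated and destroyed when oxygen is plentiful. When oxygen falls they accumulate and switch on genes for glucose uptake, glycolysis, vessel growth, acid export and collagen modification, together with genes that feed back on the pathway. Glycolysis turns glucose into pyruvate, and solid tumours often run it at a high rate, with the pyruvate then reduced to lactate.

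All animals carried H295R tumours, are recorded as male in the labels, and were treated by mouth for 28 days. Control animals received corn oil, the mitotane group received mitotane, a drug toxic to adrenocortical cells, the 9-cisRA group received a retinoid that binds RAR and RXR nuclear receptors, and the combined group received both agents. The labels list 16 arrays, 4 per group, on 4 slides that each hold 1 array of every group, and the replicate number used here is that of the slide. Scanner output of 15 arrays was tested, so n = 4 for control, mitotane and 9-cisRA and n = 3 for combined treatment. Combined replicate 3 was read only from the authors' deposited value table. The tumour cells come from a single human line, the array design is human, and the blood vessels and stroma of such a graft are those of the mouse host. Whether the arrays stand for different mice is not stated in the labels, and the p-values therefore reflect only the spread among these arrays, which may in part be technical. The RNA is that of bulk tumour, in which fewer cells of a type and less RNA per cell cannot be told apart. Levels are log2 signals relative to the 75th percentile of the array, and a value of 1 in a difference is a 2-fold difference.

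Control replicate 4 stood apart from the other arrays. The 75th percentile of its signal was an intensity of 224.2, against 551.5 to 1061 on the other 14 arrays, and its median correlation with the other arrays was 0.874, against 0.977 to 0.990. Of the 30 tested members, 22 were lower on it than the mean of the other 3 controls, with a median difference of -0.66, while the median over all tested transcripts was -0.32. CA12, DDIT4, PGK1 and ALDOC went the other way by 4.88, 3.18, 1.77 and 1.38. Combined replicate 4 had the fewest probes above background, 58.0% against 61.7% to 75.9% on the other arrays. The adrenocortical label was borne by its markers: 8 of 10 were well above background on every array, among them STAR, which carries cholesterol into mitochondria, at 4.58 to 6.11. CYP11B1, the cortisol-forming enzyme, was above background on 1 of the 15 arrays. Differences from control are given with and without control replicate 4 where the value turns on it.

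None of the 30 members passed an adjusted p of 0.05 in any of the 6 comparisons in limma with Benjamini-Hochberg adjustment over all tested transcripts, and no other transcript passed, so the share called was 0%. Against control, the smallest adjusted p of a member was 0.713 under mitotane, 0.745 under 9-cisRA and 0.358 under combined treatment. It was 0.853 for combined treatment against mitotane, 0.294 for combined treatment against 9-cisRA and 0.966 for the interaction, which asks whether the effect of both agents departs from the sum of the single effects. The lowest of these values belonged to ENO1.

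At an unadjusted limma p under 0.05, differences in either direction were found for 6.03%, 3.5% and 13.8% of all transcripts under mitotane, 9-cisRA and combined treatment against control. For combined treatment against mitotane and 9-cisRA and for the interaction the shares were 4.75%, 9.45% and 3.71%. Among the members at that level, 1 was lower under mitotane than in control, where 0.919% of all transcripts were lower at that level, and 1 was lower under 9-cisRA, against 1.35%. Combined treatment had 1 member lower than control against 2.21% of transcripts, 1 lower than mitotane against 1.8%, and 2 lower than 9-cisRA against 2.04%. The interaction was below 0 at that level for 2 members, against 2.33% of transcripts. No member was higher at that level in any of these comparisons. The shares of transcripts that were higher were 5.11%, 2.15% and 11.6% in the comparisons with control, 2.95% against mitotane, 7.41% against 9-cisRA and 1.38% for the interaction. The members in question were KDM3A in each comparison with control, ENO1 in both comparisons of combined treatment with a single agent and in the interaction, LDHA against 9-cisRA, and GAPDH in the interaction.

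Without control replicate 4 there was still no adjusted call (0% of transcripts), but other members stood at an unadjusted limma p under 0.05, all of them lower. These were PDK1 under mitotane (1 of 30 members, 2.31% of transcripts lower) and ANKRD37 under 9-cisRA (1 of 30, 2.2%), and under combined treatment LDHA, ENO1, SLC2A3 and PFKFB3 (4 of 30, 5.13%). Against mitotane, combined treatment was lower for ENO1 and BHLHE40 (2 of 30, 5.03%), and against 9-cisRA for ENO1, LDHA, GAPDH and PGK1 (4 of 30, 5.34%). With all arrays, BHLHE40 was bright enough to be tested only through the mitotane and 9-cisRA groups, where its means were highest. Its place here is therefore not read as a result. Without control replicate 4 its control mean was -3.56, above -3.92 under 9-cisRA. The interaction was below 0 for ENO1 and GAPDH (2 of 30, 3.88%). KDM3A was no longer among them in any comparison with control. Of all transcripts 5.36%, 2.13%, 13.1%, 6.45%, 13.7% and 3.06% were higher at that level in these 6 comparisons in the same order, with 0 members among them.

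When limma was given a weight per array, combined treatment differed from control for 5786 transcripts (28.6%) at an adjusted p of 0.05, and 6 members were among them, all lower: ENO1, PFKFB3, LDHA, PDK1, SLC2A3 and GAPDH, where 9.01% of all transcripts were called lower. The weights called ENO1 lower against mitotane (0.247% of transcripts called lower) and ENO1 and GAPDH lower against 9-cisRA (2.16% called lower), out of 0.509% and 9.87% called in all. They called no member under mitotane (0.0148% of transcripts called) or 9-cisRA (0.0198%) against control, nor in the interaction (0%). These weights ran from 0.0351 for control replicate 4 and 0.321 for combined replicate 4 up to 8.80 for control replicate 2.

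Over the whole set the differences from control were small. The median log2 difference of the 30 members was 0.13 under mitotane, 0.09 under 9-cisRA and -0.01 under combined treatment, beside medians over all tested transcripts of 0.09, 0.03 and 0.09. Above 0 were 18, 16 and 14 of the 30 members, beside 61.5%, 53.9% and 58.7% of all transcripts. Without control replicate 4 the members' medians were -0.03, -0.00 and -0.20, and 14, 15 and 7 of 30 were above 0, beside 64.4%, 53.6% and 60.9% of transcripts. Combined treatment lay below the single agents: the median was -0.15 against mitotane and -0.20 against 9-cisRA, with 22 of 30 members below 0 in each, while 52% and 59.3% of all transcripts were above 0. The interaction was above 0 for 12 members and 50.2% of transcripts, and for 11 members and 51.8% without control replicate 4. The comparisons with control share the control arrays, and those of combined treatment share the combined arrays, so their values are not separate evidence.

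**Figure D1:**
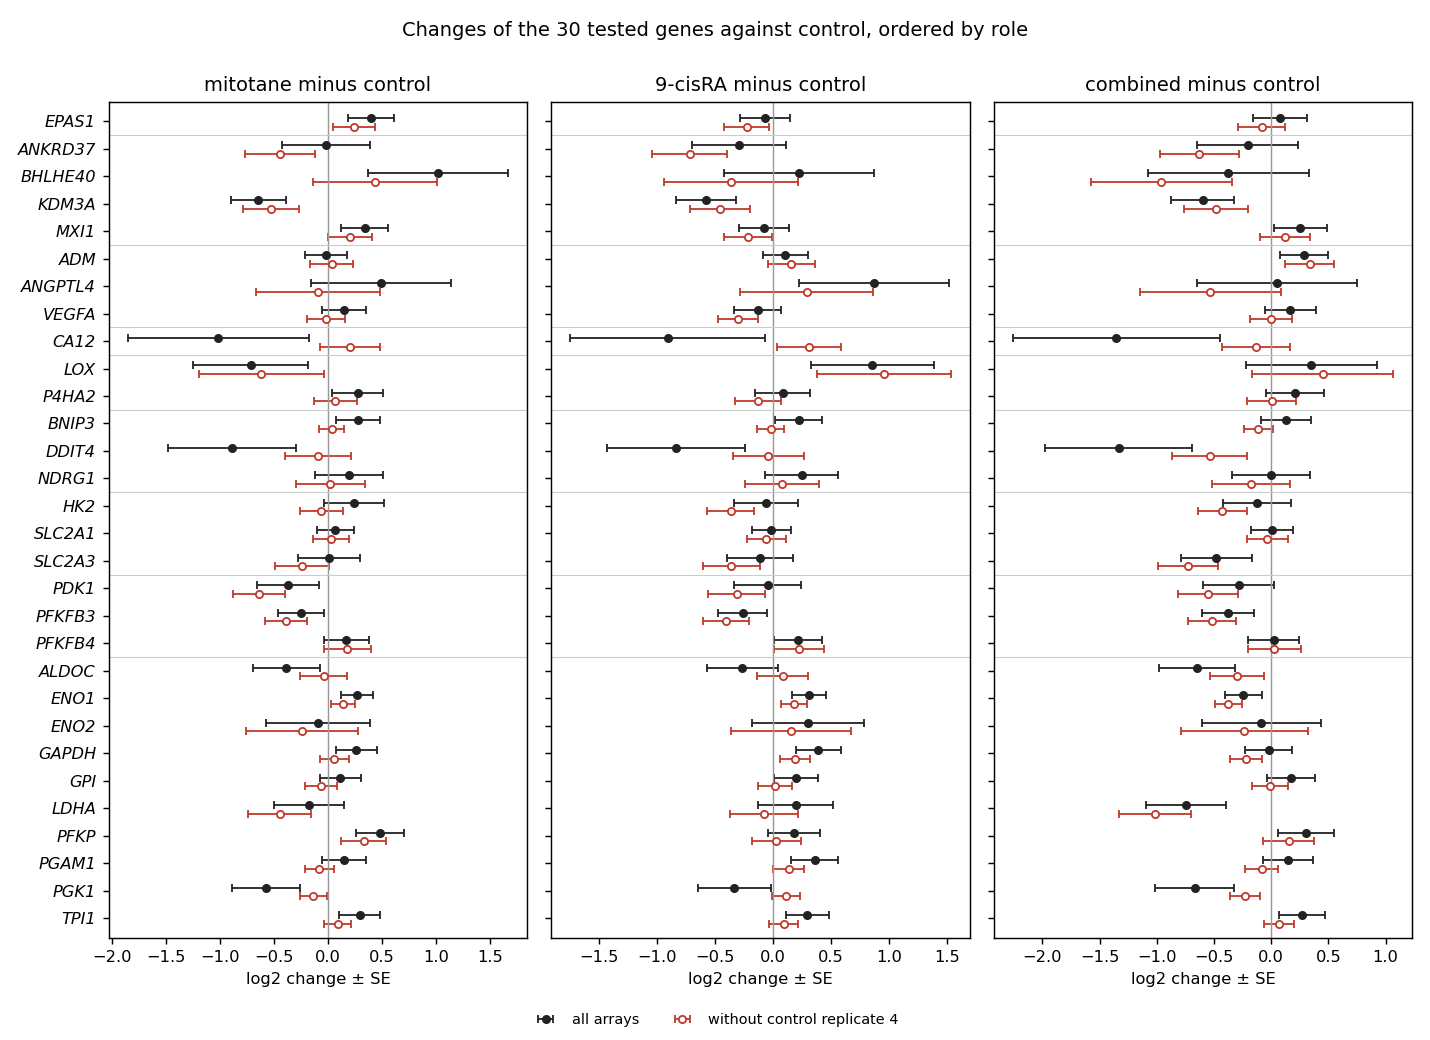
Log2 difference from control with its standard error for the 30 tested genes, grouped by role with grey lines, for mitotane, 9-cisRA and combined treatment. Filled black points use all arrays and open red points leave out control replicate 4; CA12 moved from -1.02 to 0.20 under mitotane and DDIT4 from -0.89 to -0.10, while KDM3A stayed below 0 in all panels.

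Most of the glycolytic enzymes in the set were measured at lower levels under combined treatment than under either agent alone, without passing the test. A separate list of further glycolysis and glucose genes, described below, did not show this. Of its 19 tested genes, 13 were higher under combined treatment than under mitotane, with a median of 0.09. Against 9-cisRA 11 of the 19 were higher, with a median of 0.08. Of the 11 listed glycolytic enzymes 10 were tested; 9 of the 10 were lower under combined treatment than under 9-cisRA, with a median log2 difference of -0.36, and 7 of the 10 were lower than under mitotane, with a median of -0.13. Against control 6 of the 10 were lower, with a median of -0.05, and 8 were lower once control replicate 4 was left out, with a median of -0.23. None of these 10 passed the adjusted threshold in any comparison. Under 9-cisRA alone 8 of the 10 were above control, with a median of 0.24, and under mitotane alone 6 of the 10, with a median of 0.13. Without control replicate 4 these were 9 of 10 with a median of 0.10 under 9-cisRA, and 4 of 10 with a median of -0.06 under mitotane, where the direction turned. Markers of cell types differed in the same comparisons. Of 9 tested adrenocortical markers 7 were lower under combined treatment than under mitotane and 6 lower than under 9-cisRA, with a median of -0.24 in each. The 3 tested fibroblast markers were all higher than under mitotane, with a median of 1.33, and 2 of 3 were higher than under 9-cisRA, with a median of 0.17. None passed the adjusted threshold, and their part in the values of the enzymes was not tested.

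ENO1 (NM_001428) encodes alpha-enolase, which forms phosphoenolpyruvate late in glycolysis. Its log2 level was 1.40, 1.5, 1.46 and 0.93 in control replicates 1 to 4 and 1.72, 1.77, 1.42 and 1.42 in the mitotane arrays. The 9-cisRA arrays read 1.58, 1.74, 1.55 and 1.65, and the combined arrays read 1.04, 1.02 and 1.17 for replicates 1, 2 and 4. Every combined array was therefore below every other array except control replicate 4. All 9-cisRA arrays were above all control arrays.

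The difference of combined treatment from 9-cisRA in ENO1 was -0.55 ± 0.16 (SE), a 1.47-fold lower level, with a limma p of 0.00395 and an adjusted p of 0.294. It was lower on 3 of 3 slides, by -0.54, -0.72 and -0.48. From mitotane the difference was -0.51 ± 0.16, a 1.42-fold lower level, with an adjusted limma p of 0.853, and it was again lower on 3 of 3 slides. Against control it was -0.24 ± 0.16 with all arrays and -0.37 ± 0.12 without control replicate 4, where the adjusted limma p was 0.181. The interaction was -0.82 ± 0.22 with a limma p of 0.0022 and an adjusted p of 0.966. The adjusted p over the alternatives tried ran from 0.0116 to 0.695 against 9-cisRA and from 0.0385 to 1.00 against mitotane. In the authors' deposited value table the combined replicate 3 read -0.09, above the other combined arrays at -0.42, -0.44 and -0.29 but below all arrays of the other groups save control replicate 4.

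GAPDH (NM_002046) encodes the enzyme that couples glycolysis to NADH formation. Its control arrays read 5.36, 5.25, 5.11 and 4.43, and its mitotane arrays 5.31, 5.54, 5.28 and 5.06. The 9-cisRA arrays read 5.32, 5.70, 5.38 and 5.31 and the combined arrays 5.01, 5.0 and 5.04. The combined arrays lay close together and below all other arrays but control replicate 4. Combined treatment differed from 9-cisRA by -0.41 ± 0.21, with an adjusted limma p of 0.579, and from mitotane by -0.28 ± 0.21. The interaction was -0.67 ± 0.28 with a limma p of 0.0312 and an adjusted p of 0.966. The deposited table of the authors put combined replicate 3 at -0.08, above control replicate 3 at -0.14 and mitotane replicate 4 at -0.21, so with that array the groups overlap.

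ENO1 and GAPDH were the 2 members whose combined arrays were all below the other 11 arrays with control replicate 4 left out; this held for 0.924% of all tested transcripts. No member had all combined arrays above those 11, which held for 2.81% of transcripts. Both counts were made after the values were seen.

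LDHA (NM_005566) encodes the muscle-type lactate dehydrogenase subunit, which reduces pyruvate to lactate. The control arrays read 2.51, 2.44, 2.56 and 1.41 and the mitotane arrays 2.39, 1.82, 1.77 and 2.25. The 9-cisRA arrays read 2.27, 2.18, 2.56 and 2.68, while the combined arrays read 2.03, 1.89 and 0.55. Combined arrays were below all 9-cisRA arrays and overlapped mitotane and, through control replicate 4, control. Combined treatment was lower than 9-cisRA by -0.94 ± 0.35, a 1.91-fold lower level, with a limma p of 0.0185 and an adjusted p of 0.413. Against control it was -0.74 ± 0.35 with an adjusted limma p of 0.368, and -1.02 ± 0.31 without control replicate 4 with an adjusted p of 0.175. Combined replicate 4 carried much of the size: without it and control replicate 4 the differences were -0.46 from 9-cisRA, -0.54 from control and -0.10 from mitotane. The authors' deposited value table put combined replicate 3 at -1.15, between replicate 2 at -0.35 and replicate 4 at -1.69. A second LDHA probe gave a difference from control of -2.07 with all arrays and -1.01 without control replicate 4.

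PGK1 encodes phosphoglycerate kinase, the first ATP-forming enzyme of the pathway. It read 4.11, 3.93, 3.87 and 5.74 in control, 3.94, 3.97, 3.72 and 3.71 under mitotane, 3.82, 4.18, 4.26 and 4.04 under 9-cisRA, and 3.78, 3.71 and 3.74 under combined treatment. The combined arrays were close together and below all control and all 9-cisRA arrays, but not below mitotane. Combined treatment differed from control by -0.67 ± 0.34 with all arrays, with an adjusted limma p of 0.4, and by -0.23 without control replicate 4. From 9-cisRA it differed by -0.33 ± 0.34.

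Groups that did not overlap were counted over all members as well. Combined arrays were all below 9-cisRA for LDHA, PGK1, ENO1 and GAPDH (4 of 30 members, 4.71% of all transcripts) and all below mitotane for ENO1 and GAPDH (2 of 30, 4.5%). They were all below control for PGK1 and DDIT4 (2 of 30, 2.52%). With combined replicate 3 from the authors' deposited value table, GAPDH overlapped mitotane and DDIT4 overlapped control. 9-cisRA arrays were all above control for ENO1 alone (1 of 30, 1.66%). Mitotane overlapped control for every tested member, where 4.24% of transcripts did not overlap, 3.55% being wholly above and 0.687% wholly below. No member was wholly lower under 9-cisRA than in control (0.726% of transcripts). None was wholly higher under combined treatment than in control (12.6%), than under mitotane (6.53%) or than under 9-cisRA (11.6%).

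**Figure D2:**
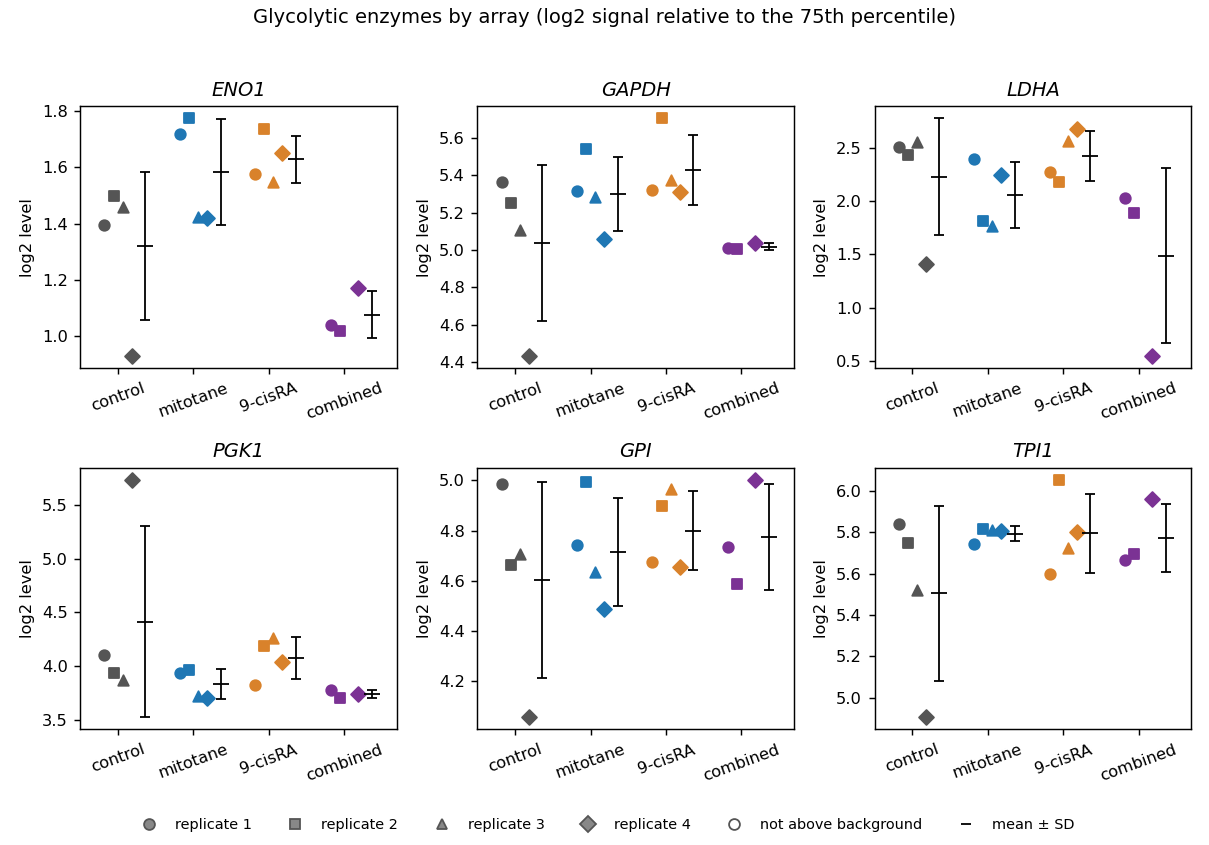
Log2 level of 6 glycolytic enzymes on each array, with symbols for the replicate and bars for the group mean ± SD (n = 4, and n = 3 for combined). ENO1 and GAPDH on the combined arrays sit below all arrays but control replicate 4, whereas GPI and TPI1 overlap between all groups.

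GPI, which converts glucose 6-phosphate to fructose 6-phosphate, averaged 4.60 ± 0.39 (SD, n = 4) in control, 4.72 ± 0.21 under mitotane, 4.80 ± 0.16 under 9-cisRA and 4.78 ± 0.21 (n = 3) under combined treatment. TPI1, the triose phosphate isomerase, averaged 5.50 ± 0.42, 5.79 ± 0.03, 5.80 ± 0.19 and 5.77 ± 0.16 in the same order. Without control replicate 4 the control means were 4.78 for GPI and 5.70 for TPI1. Combined treatment differed from 9-cisRA by -0.02 for both, with 95% intervals from -0.47 to 0.42 for GPI and from -0.45 to 0.41 for TPI1.

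PGAM1, a phosphoglycerate mutase, read 3.49, 3.26, 3.04 and 2.35 in control, 3.21, 3.35, 3.11 and 3.06 under mitotane, 3.24, 3.53, 3.60 and 3.21 under 9-cisRA and 3.21, 3.21 and 3.12 under combined treatment. All groups overlapped, and the difference of 9-cisRA from control, 0.36 ± 0.20, was 0.13 without control replicate 4. A second PGAM1 probe gave -0.22 in that comparison with all arrays and 0.21 without control replicate 4. PFKP, the platelet-type phosphofructokinase, read 1.58, 1.57, 1.90 and 1.07 in control and 1.77, 2.07, 2.65 and 1.55 under mitotane. The 9-cisRA arrays were at 1.75, 1.53, 1.66 and 1.91 and the combined arrays at 1.95, 1.65 and 1.90. Mitotane was higher than control on 4 of 4 slides, by 0.48 ± 0.23, with a limma p of 0.0507 and an adjusted p of 0.713, and by 0.33 without control replicate 4.

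ALDOC, an aldolase isoform of brain, and ENO2, the neuronal enolase, varied more between arrays. ALDOC averaged -0.75 ± 0.72 in control, or -1.10 ± 0.23 without replicate 4, and -1.14 ± 0.37, -1.02 ± 0.29 and -1.40 ± 0.30 under mitotane, 9-cisRA and combined treatment, lowest in the last as for ENO1 and GAPDH against the single agents. ENO2 ranged from -3.55 to -0.89 over the 15 arrays, with group means of -2.33, -2.42, -2.03 and -2.42. No comparison of either gene had a limma p under 0.05 with all arrays or without control replicate 4.

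**Figure D3:**
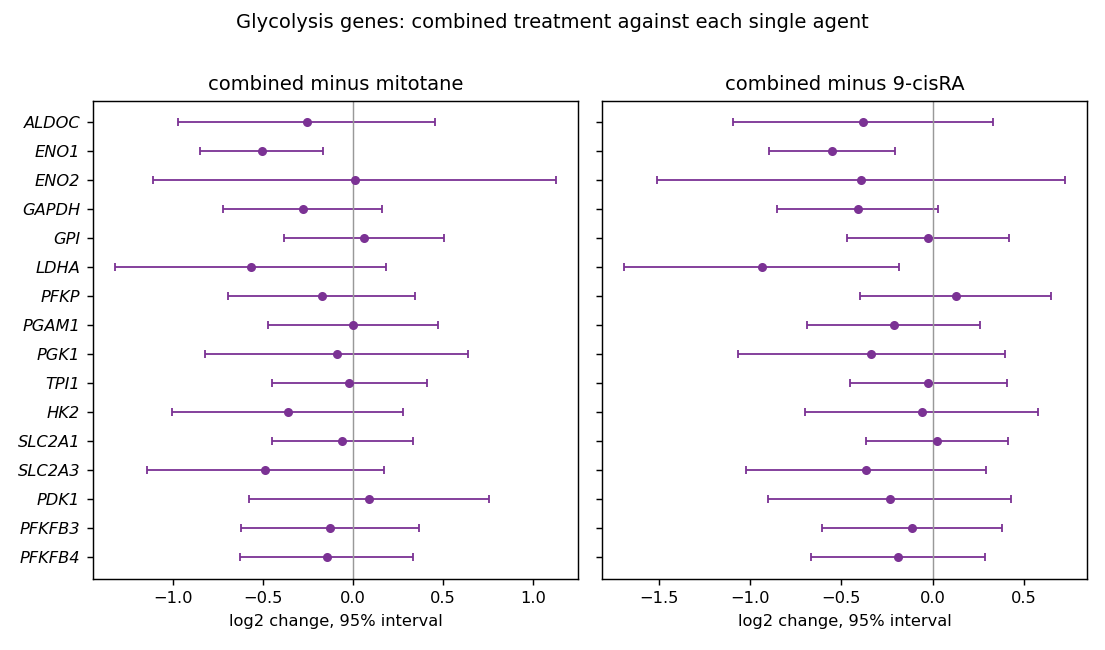
Log2 difference of combined treatment from mitotane and from 9-cisRA, with 95% intervals from limma, for the 10 tested glycolytic enzymes and 6 genes of glucose entry and glycolysis control. ENO1 has intervals below 0 in both panels and LDHA in the comparison with 9-cisRA, while the intervals of the other genes include 0.

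The 3 genes of glucose entry were all lower under combined treatment than under mitotane, with a median of -0.36, and all lower than control under 9-cisRA, with a median of -0.07. Under mitotane all 3 were above control, but 1 was without control replicate 4, and under combined treatment 1 of 3 was above control with that array and 0 of 3 without it. SLC2A1, the glucose transporter GLUT1, read 2.77, 2.5, 2.5 and 2.41 in control, 2.29, 2.70, 3.01 and 2.45 under mitotane, 2.26, 2.65, 2.78 and 2.42 under 9-cisRA and 2.51, 2.53 and 2.62 under combined treatment. The group means lay between 2.53 and 2.61, and the 95% interval of combined treatment against control ran from -0.38 to 0.40. SLC2A3, the transporter GLUT3, was at -2.10 ± 0.51, -2.09 ± 0.36, -2.21 ± 0.07 and -2.58 ± 0.64 in control, mitotane, 9-cisRA and combined treatment. Its difference of combined treatment from control was -0.48 ± 0.31. Without control replicate 4 it was -0.73 ± 0.26 with an adjusted limma p of 0.2, and without combined replicate 4 too it was -0.36. A second SLC2A3 probe gave 0.04 for combined treatment against control with all arrays and -0.17 without control replicate 4. HK2, the hexokinase induced by hypoxia, averaged -1.29, -1.05, -1.35 and -1.41, and its difference under combined treatment was -0.13 with all arrays and -0.43 without control replicate 4. Under mitotane the difference of HK2 from control turned from 0.24 with all arrays to -0.06 without that array.

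Among the regulators, PDK1, a kinase that holds pyruvate back from the mitochondria by inhibiting pyruvate dehydrogenase, averaged 0.01 ± 0.58 in control, -0.36 ± 0.41 under mitotane, -0.04 ± 0.42 under 9-cisRA and -0.27 ± 0.13 under combined treatment. Its difference under mitotane was -0.37 ± 0.29 with all arrays and -0.64 ± 0.24 without control replicate 4, where the adjusted limma p was 0.616. PFKFB3 and PFKFB4 make fructose 2,6-bisphosphate, the activator of phosphofructokinase. PFKFB3 was at -0.90, -1.15, -1.16 and -1.28 in control, mitotane, 9-cisRA and combined treatment, and its difference under combined treatment was -0.38 ± 0.23, or -0.52 ± 0.21 without control replicate 4 with an adjusted limma p of 0.233. PFKFB4 was at -2.04, -1.87, -1.83 and -2.02, with no limma p under 0.05.

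EPAS1, the HIF-2 alpha subunit, was the alpha subunit that could be read. Its control arrays were at -0.85, -0.46, -0.07 and -1.11, and its mitotane arrays at -0.24, 0.05, -0.12 and -0.59. The 9-cisRA arrays were at -0.67, -1.03, -0.50 and -0.57 and the combined arrays at -0.56, -0.41 and -0.66. Mitotane was above control on 3 of 4 slides and overlapped it, with a difference of 0.40 ± 0.22 and an adjusted limma p of 0.713, and of 0.23 without control replicate 4.

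KDM3A (NM_018433), a histone H3 lysine 9 demethylase and HIF target, was the member at an unadjusted p under 0.05 in all comparisons with control. It read -3.12, -2.80, -2.39 and -2.30 in control and -3.04, -3.92, -3.09 and -3.15 under mitotane. Under 9-cisRA it read -3.48, -3.59, -3.04 and -2.81, and under combined treatment -3.05, -3.07 and -3.63. Control replicates 2, 3 and 4 were above every treated array, replicate 2 only just, whereas control replicate 1 lay among them. The differences from control were -0.65 ± 0.26 under mitotane, -0.58 ± 0.26 under 9-cisRA and -0.60 ± 0.28 under combined treatment, or 1.57-, 1.49- and 1.51-fold lower. The limma p-values were 0.0237, 0.0394 and 0.0475 and the adjusted values 0.713, 0.745 and 0.358. KDM3A was lower on 3 of 4 slides under mitotane, on 4 of 4 under 9-cisRA and on 2 of 3 under combined treatment. These comparisons use the same control arrays; without replicate 4 the differences were -0.53, -0.46 and -0.48, none with a limma p under 0.05. Without combined replicate 4 as well, the difference under combined treatment was -0.29.

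BHLHE40, a transcriptional repressor induced by HIF, had one of the widest ranges. It was at -4.07, -3.68, -2.93 and -5.90 in control, -3.38, -3.57, -1.39 and -4.18 under mitotane, -3.94, -4.77, -3.78 and -3.20 under 9-cisRA and -3.89, -4.32 and -5.36 under combined treatment. Control replicate 4 and combined replicate 4 were not above background, and mitotane replicate 3 was the highest array. Combined treatment differed from mitotane by -1.39 ± 0.70 with an adjusted limma p of 1.00, and the interaction was -1.62 ± 0.95. BHLHE40 entered the test only through the mitotane and 9-cisRA groups, so these differences are not read as a result. Both group means rest on few arrays, and the control mean was -3.56 without control replicate 4. ANKRD37, an ankyrin repeat protein and HIF target, averaged -1.56, -1.59, -1.86 and -1.77 in control, mitotane, 9-cisRA and combined treatment; its difference under 9-cisRA was -0.29 ± 0.41, or -0.72 ± 0.32 without control replicate 4 with an adjusted limma p of 0.98. MXI1, a MYC antagonist, averaged -0.33, 0.01, -0.41 and -0.07, with a control mean of -0.19 without replicate 4. A second MXI1 probe had the other sign under mitotane and combined treatment against control, as given below.

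The negative feedback hydroxylase EGLN3 was above background on none of the 15 arrays. The same held for STC2, a secreted glycoprotein.

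VEGFA, the main HIF-driven growth factor for blood vessels, read 0.86, 0.89, 1.31 and 0.34 in control and 0.93, 0.78, 1.45 and 0.84 under mitotane. Under 9-cisRA it read 0.54, 0.80, 0.58 and 0.96, and under combined treatment 1.03, 1.14 and 0.90. All groups overlapped: the differences from control were 0.15 ± 0.20 under mitotane, -0.14 ± 0.20 under 9-cisRA and 0.17 ± 0.22 under combined treatment, and -0.02, -0.31 and -0.00 without control replicate 4. ADM, the vasodilator adrenomedullin, averaged -2.70 ± 0.12, -2.72 ± 0.39, -2.60 ± 0.27 and -2.41 ± 0.23 in control, mitotane, 9-cisRA and combined treatment. Its difference under combined treatment was 0.29 ± 0.21, with a 95% interval from -0.17 to 0.74. ANGPTL4, a secreted inhibitor of lipoprotein lipase, averaged -3.96, -3.48, -3.10 and -3.92, with SDs from 0.79 to 1.26, and was above background on 13 of 15 arrays. Without control replicate 4 its control mean was -3.38, above the means under mitotane and combined treatment. ANGPTL4 entered the test only through the mitotane and 9-cisRA groups, so its differences between groups are not read as a result.

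CA9 encodes the carbonic anhydrase that acidifies the surroundings of hypoxic cells and is widely used as a hypoxia marker. It was above background on 6 of 15 arrays and was not tested. The control arrays read -6.74, -6.68, -4.18 and -6.33 and the mitotane arrays -5.49, -7.02, -6.37 and -7.08. The 9-cisRA arrays read -6.83, -6.88, -5.03 and -2.89 and the combined arrays -5.71, -8.11 and -3.44. Above background were control replicate 3, mitotane replicate 1, 9-cisRA replicates 3 and 4 and combined replicates 1 and 4, so that every group held arrays with and without a signal. CA12, a related membrane carbonic anhydrase, was at -5.06, -6.26 and -5.30 in control replicates 1 to 3 and at -0.66 in replicate 4; its difference under mitotane was -1.02 ± 0.84 with that array and 0.20 without it.

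LOX, which cross-links collagen, was above background on 10 of 15 arrays: 3 control, 1 mitotane, all 4 9-cisRA and 2 combined arrays. It read -5.68, -5.12, -5.46 and -5.02 in control, -6.50, -4.34, -6.91 and -6.41 under mitotane, -4.66, -3.32, -5.35 and -4.54 under 9-cisRA and -4.22, -5.77 and -4.92 under combined treatment. The highest array of each single-agent group was replicate 2. LOX entered the test only through the 9-cisRA group, where it was highest, and most mitotane arrays were at background. Its differences between groups are therefore not read as a result. They are still drawn in the plot of log2 differences from control and enter the counts over all tested members. COL1A1, a collagen gene that marks fibroblasts, had group means of 3.32, 2.71, 4.51 and 4.67 in control, mitotane, 9-cisRA and combined treatment. Within the single-agent groups it was highest on mitotane replicate 2 and 9-cisRA replicate 2, at 4.93 and 5.68. COL1A2 averaged 2.38, 2.02, 3.66 and 3.35 in the same order. PDGFRB, another fibroblast marker, was not raised under 9-cisRA, with means of -3.65, -3.98, -3.75 and -3.30. COL3A1 was above background on 4 of 15 arrays. Of the 4 fibroblast markers all were on the array and 2 were above background on every array, and their summed level on the log2 scale was 3.76 to 4.08 in control, 2.17 to 5.54 under mitotane, 4.45 to 6.30 under 9-cisRA and 4.93 to 5.35 under combined treatment. Their part in the LOX values was not tested. P4HA2, a collagen prolyl hydroxylase subunit, averaged -1.80, -1.53, -1.72 and -1.59, with no limma p under 0.05. Its control mean was -1.59 without control replicate 4.

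DDIT4 encodes REDD1, which restrains mTORC1 under stress. It read -1.48, -1.31, -1.21 and 1.85 in control, -1.64, -1.70, -0.58 and -1.79 under mitotane, -2.16, -1.26, -1.21 and -0.87 under 9-cisRA and -1.67, -2.14 and -1.81 under combined treatment. The 3 combined arrays were below all controls, and mitotane replicate 3 was high within its group. In the authors' deposited value table combined replicate 3 read 0.22, above control replicates 1 to 3 at -0.08, 0.08 and 0.19, so with that array the groups overlap. Combined treatment differed from control by -1.33 ± 0.64 with an adjusted limma p of 0.376, and by -0.54 without control replicate 4. BNIP3, a mitophagy receptor, was at 3.09 ± 0.49, 3.36 ± 0.08, 3.31 ± 0.20 and 3.22 ± 0.09 in control, mitotane, 9-cisRA and combined treatment, and the control mean was 3.33 ± 0.10 without replicate 4. NDRG1, a stress-induced gene, averaged -0.60, -0.41, -0.35 and -0.60, with a control mean of -0.43 without replicate 4.

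Arrays of a group differed from one another in the hypoxia targets. With control replicate 4 left out, 11 members were highest of their group on control replicate 3, on mitotane replicate 3 and on 9-cisRA replicate 4, namely ADM, ANGPTL4, BHLHE40, DDIT4, ENO2, HK2, NDRG1, P4HA2, PFKFB4, PFKP and VEGFA. Of all tested transcripts 428 (2.11%) had that order. The arrays were picked after the values were seen, the 3 belong to different groups and to slides 3 and 4, and no test was made. In ANGPTL4 those arrays exceeded the mean of their group's other arrays by 0.95, 1.44 and 2.15, in ENO2 by 1.61, 0.51 and 1.52 and in VEGFA by 0.43, 0.60 and 0.32.

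Over the 30 members, control replicate 3 was the highest control for 18, mitotane replicate 3 was the highest in its group for 15 and 9-cisRA replicate 4 for 16. The shares of all transcripts highest there were 37.6%, 31.4% and 16.7%. CA9 was also high on control replicate 3 and 9-cisRA replicate 4, though not on mitotane replicate 3. ENO1, GAPDH and TPI1 were instead highest on replicate 2 of both single-agent groups.

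**Figure D4:**
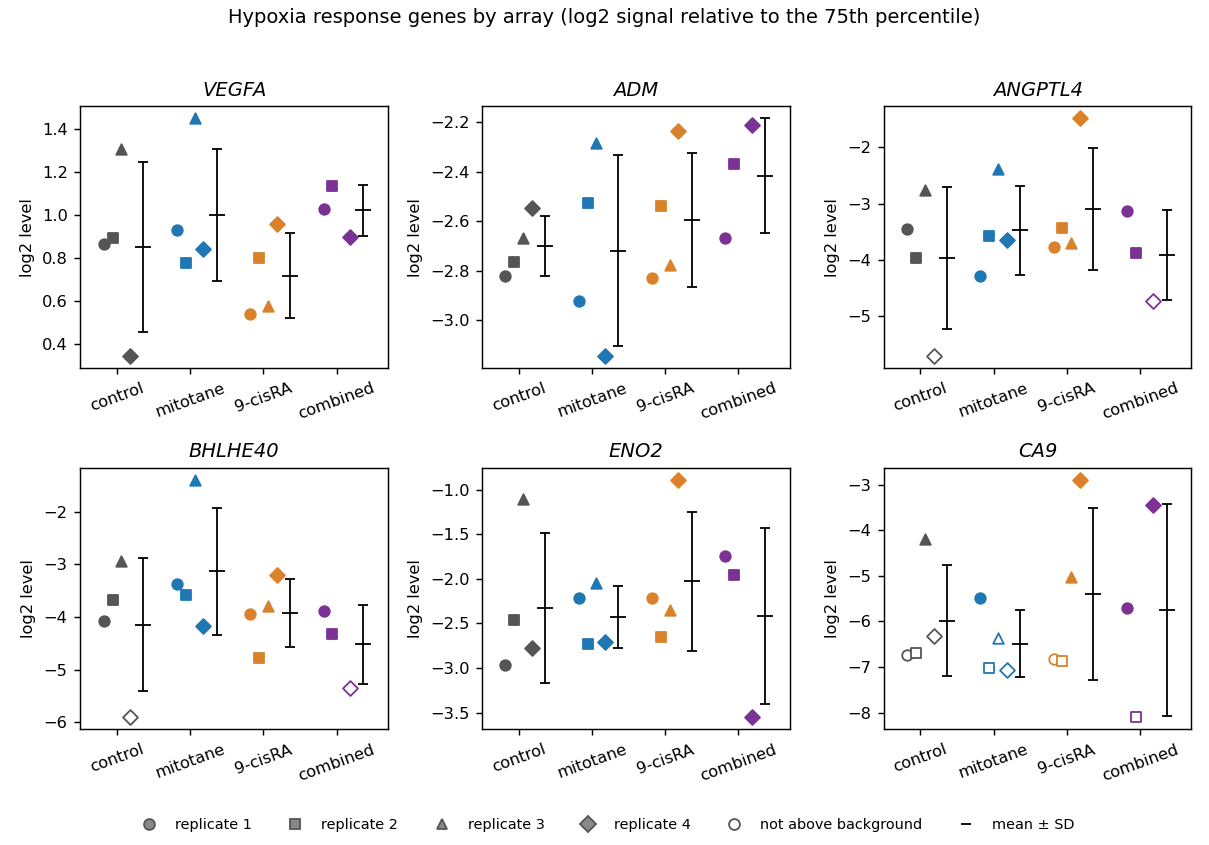
Log2 level of 6 hypoxia response genes on each array, with open symbols where the probe was not above background and bars for mean ± SD (n = 4, and n = 3 for combined). Control replicate 3 and 9-cisRA replicate 4 are high in VEGFA, ANGPTL4, BHLHE40, ENO2 and CA9, and the groups overlap in every panel.

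The spread between arrays of a group, taken without control replicate 4, had a median of 0.29 over the members and of 0.21 over all tested transcripts, and 23 of 30 members were above the latter. It was widest for LOX, ANGPTL4, BHLHE40 and ENO2, at 0.87, 0.86, 0.86 and 0.77, and narrowest for ENO1, BNIP3, PGK1 and TPI1, at 0.12, 0.13, 0.14 and 0.15.

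**Figure D5:**
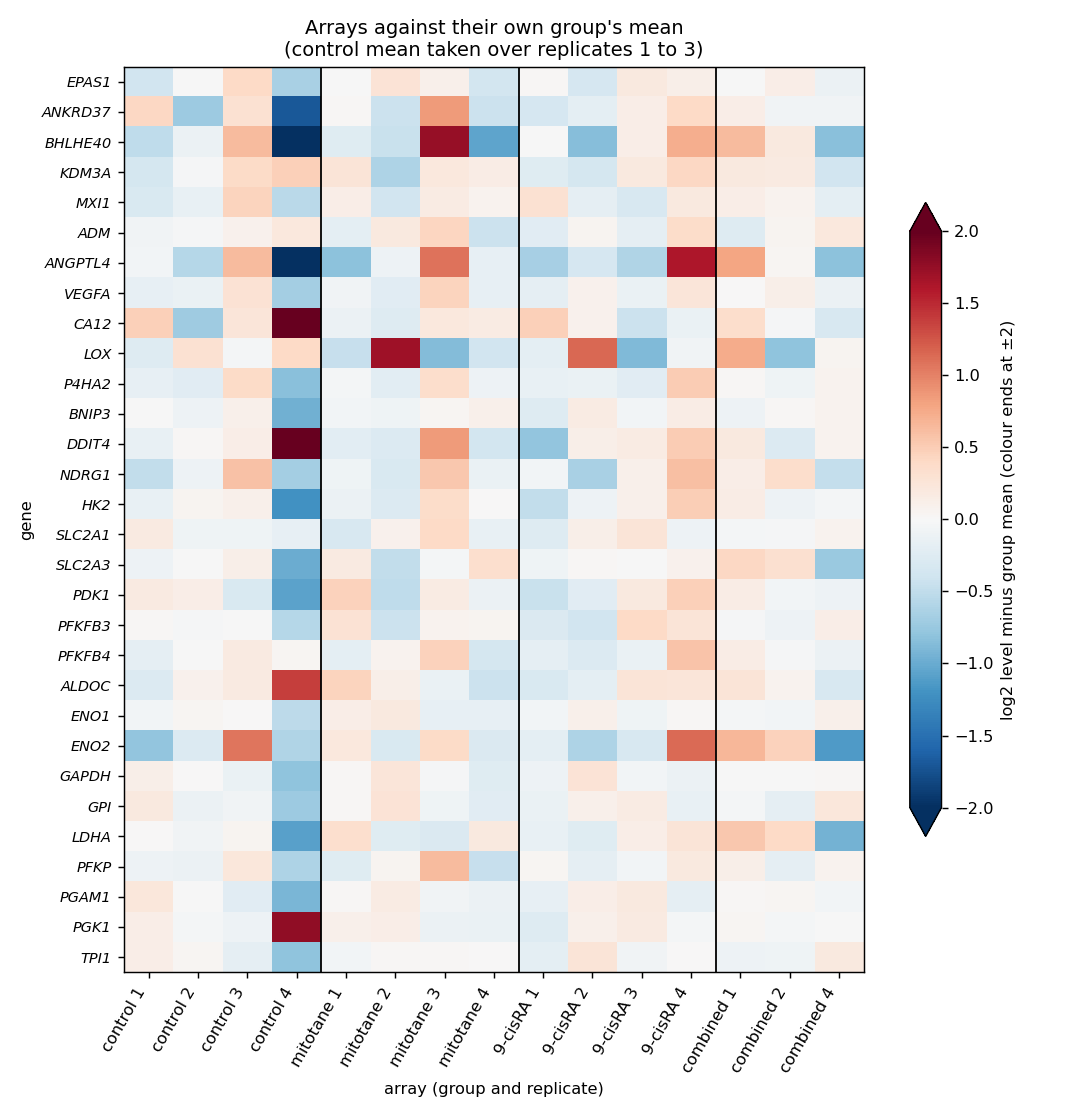
Each row is a tested gene and each column an array; colour is the log2 level minus the mean of that group, taken over replicates 1 to 3 for control, with the scale ending at ±2. Control replicate 4 departs in most rows, and control 3, mitotane 3 and 9-cisRA 4 are above their group mean in the rows of the 11 genes that were highest there. Some of these differences are small on this scale, as for ADM, HK2 and DDIT4 on control 3.

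Other genes of the HIF pathway were read from a separate list of 20, of which 18 were on the array and 14 were tested. None passed the adjusted threshold in any comparison. The median difference from control was 0.19 under mitotane, 0.14 under 9-cisRA and 0.05 under combined treatment, and without control replicate 4 it was 0.01, -0.00 and -0.13. VHL, whose product marks hydroxylated HIF alpha for destruction, averaged 5.29 ± 0.26 in control, 5.60 ± 0.12 under mitotane, 5.26 ± 0.19 under 9-cisRA and 5.92 ± 0.13 under combined treatment. Its combined arrays, at 6.07, 5.87 and 5.82, were above all 12 other arrays, of which the highest was 5.66. With control replicate 4 left out, 2.81% of all tested transcripts had every combined array above the other 11. These values do not include combined replicate 3. Combined treatment differed from control in VHL by 0.63 ± 0.17 with an adjusted limma p of 0.214, and by 0.50 without control replicate 4. From 9-cisRA it differed by 0.66 ± 0.17 with an adjusted limma p of 0.281. BNIP3L, a mitophagy receptor related to BNIP3, was lower than control under mitotane by -0.48 ± 0.21, with an adjusted limma p of 0.713, and by -0.26 without control replicate 4.

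Of 24 further genes of glycolysis and glucose handling, 21 were on the array, 19 were tested and none passed the adjusted threshold. The median difference from control was 0.12 under mitotane, 0.07 under 9-cisRA and 0.29 under combined treatment, and 13, 12 and 13 of the 19 were above 0. Without control replicate 4 the medians were -0.07, 0.01 and 0.08, with 8, 11 and 11 of 19 above 0. PDK2 and PDK3, which inhibit pyruvate dehydrogenase as PDK1 does, differed from control under combined treatment by 0.51 ± 0.19 and -1.32 ± 0.43, with adjusted limma p-values of 0.271 and 0.244, and by 0.33 and -0.90 without control replicate 4. PDK3 was at -0.66 on control replicate 4 and at -4.29 on combined replicate 4, against -2.88 to -2.28 on the other arrays of both groups. PFKM, the muscle phosphofructokinase, was higher than control under combined treatment by 0.37 ± 0.17, with an adjusted limma p of 0.359, and by 0.20 without control replicate 4. SLC2A4, the insulin-responsive transporter GLUT4, was higher under combined treatment than under 9-cisRA by 0.43 ± 0.18, with an adjusted p of 0.481.

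Markers of other cells were measured beside these genes. Of 4 endothelial markers, CDH5 was above background on all 15 arrays, with group means from -2.80 to -2.47, VWF was on 13, and PECAM1 and TEK were on none. HBB, of 3 red blood cell markers, was above background on none. HBA2, an alpha globin, ranged from 4.12 to 7.72 and averaged 6.86 in control, 5.41 under mitotane, 5.28 under 9-cisRA and 6.0 under combined treatment. ALAS2, the third of these markers, was above background on 14 arrays and averaged -3.86, -4.01, -4.08 and -4.32 in the same order. Without control replicate 4 its differences from control were 0.20, 0.12 and -0.11, while those of HBA2 were -1.41, -1.55 and -0.82. PTPRC, the leukocyte marker CD45, read 5.15 on control replicate 4, while its level elsewhere lay between -4.74 and -3.09. For ITGAM, another leukocyte marker, the control mean was -4.54 with that array and -5.03 without it. For CD68, above background on 5 arrays, it was -5.95 and -5.89. Whether signal from host or other cells enters the values of the hypoxia genes was not tested.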

How the data were processed

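RNA of H295R tumours was measured on Agilent 4x44K arrays in a single colour, per the labels. Each spot has an intensity, which the authors deposited as written by the Feature Extraction software (version 11.0.1 per the submitters' processing notes, 11.0.1.1 per the file headers). The processed signal is background-subtracted, per the file headers. A series-wide value file deposited by the authors holds log2 values. Differences between its columns matched those of the scanner files (r = 1.00 after rounding, 18286 probes), and its values are centred per probe. Its exact scaling is unknown, and its column medians ran from -0.45 on control replicate 4 to 0.08. The number of arrays limits the precision.

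The processed signals were put on the log2 scale and each array's 75th percentile was subtracted, computed over its 43118 spots that are not controls. Outlier spots were left out, spots of a probe were averaged, and the brightest probe stood for an identifier. Testing required a probe well above background (more than 0.5 of its spots) on all arrays of 1 group or more. A single limma model (version 3.58.1, with R 4.3.3; files were read with data.table, version 1.17.8) held all groups, with moderated two-sided tests and Benjamini-Hochberg adjustment over all tested transcripts at 0.05. The procedure was tested on simulated data. Plots were drawn with matplotlib 3.10.9. Alternatives covered normalization, background correction, the filter on dim probes, the choice of probe, array weights, the slide as a block and each array left out.

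Members, gene lists and alternatives were chosen with earlier results of these data known. Values on every array are given for the members with the smallest unadjusted p, 4 in each comparison with control and 3 in each other, and always for EPAS1, VEGFA, CA9, SLC2A1 and LDHA. HIF1A was also chosen for this, but its listed transcript was not found on the array. Genes of other lists are named at an unadjusted p under 0.05 or as markers. Member symbols came with the list of identifiers, and those of the other lists were assigned by RefSeq identifier when the lists were written, since the files pair no gene names.

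Replicates were numbered within groups, and the number coincides with the slide in the titles. Deviations from the group means correlated on the same slide with medians between -0.04 and 0.08, against -0.02 on different slides. The fit with slide as a block called 0 transcripts, as did the fit without it.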

Additional observations from a re-analysis of the deposited data

Results flagged for a closer look

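Within groups of 4 arrays, 42 sets of values from 14 genes were searched for an array far from the rest of its group. The search found 6, where chance flags about 1 in 20 of independent sets. These sets share the same arrays and several flags fall on control replicate 4, so an excess cannot be read from that rate. Control replicate 4 was low in LDHA, at 1.41, and high in PGK1, at 5.74, and DDIT4, at 1.85. CA9 was high in control replicate 3, at -4.18. KDM3A was low in mitotane replicate 2, at -3.92. DDIT4 was high in mitotane replicate 3, at -0.58.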

How the results depend on the processing

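For all tested transcripts, weights per array called 3 for mitotane, 4 for 9-cisRA and 5786 for combined treatment against control, and 103 against mitotane and 1998 against 9-cisRA for combined treatment, where the unweighted fit called 0. The authors' deposited value table without control replicate 4 called 1 for combined treatment against mitotane (NM_176812). Leaving out control replicate 4 and combined replicate 4 together called 2 for combined treatment against 9-cisRA (NM_006495 and NM_152612). Leaving out 1 array at a time gave 0 to 1 for combined treatment against mitotane, the 1 call (NM_000316) being without mitotane replicate 2, and 0 to 0 in the other comparisons. None of these 4 identifiers is a member, and they were named after their values were seen. With slide as a replicate block 0 transcripts were called in each comparison, so the block changed no call.

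For the 21 results of members with the smallest p, 563 alternative values were computed and 0 had the other sign. These results were picked for a small p in the same data. Leaving out an array outside a comparison also cannot move its difference, so the count of signs lends them no support. Signs did change for members not so picked, such as ADM under mitotane against control, in 7 of 27 alternatives. Of the 563 values, 559 kept their side of the threshold and 4 passed it, all with weights per array: LDHA for combined treatment against control, ENO1 against mitotane, and ENO1 and GAPDH against 9-cisRA. Results of LOX and BHLHE40 are among the 21. Second probes entered the alternatives only within a mean over all probes of a gene, not alone. The alternative with normexp used the median spot signal, chosen after seeing the files, and the value table was also read over 15 arrays. Members above 0 numbered 13 to 20 of 30 for mitotane, 13 to 21 for 9-cisRA and 5 to 19 for combined treatment against control over all alternatives, so the direction of the set against control depends on them. Combined treatment had 4 to 12 members above mitotane and 5 to 11 above 9-cisRA. Signal close to background limits CA9, CA12, LOX, ANGPTL4 and BHLHE40.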

Other observations

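Several members had a second probe on the array. For PGAM1 the second probe was lower under combined treatment than under 9-cisRA by -0.66, where the probe used above gave -0.21. For SLC2A3 the probes gave 0.03 and -0.37 in that comparison, and for MXI1 0.05 and 0.34. Against control the MXI1 probes differed in sign under mitotane, at -0.14 and 0.34, and under combined treatment, at -0.03 and 0.26. Under 9-cisRA both MXI1 probes gave -0.08. The second PFKFB3 probe read below control under mitotane, 9-cisRA and combined treatment by -1.03, -0.96 and -0.69 with all arrays and by -0.63, -0.56 and -0.29 without control replicate 4. The second HK2 probe was above background on 1 of 15 arrays.

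Combined replicate 3, read from the authors' deposited value table as log2 values centred per probe, was the lowest of the combined arrays for KDM3A, at -0.90, and for BHLHE40, at -1.50. It was the highest of them for LOX, at 1.28, and DDIT4, at 0.22. For VEGFA it was at -0.00 and for CA9 at 0.33.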
